A study of Mus musculus with 6 samples.

Results

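Cell cycle genes were followed in stomach RNA of mouse embryos at E13.5, measured on 6 Affymetrix arrays. The 57 genes were a chosen set in 3 roles. There were 7 genes of G1 (the D cyclins, their kinases Cdk4 and Cdk6, and Myc and Mycn), 16 of the start of DNA replication and 34 of mitosis. Each was read from the probe set annotated to its symbol alone with the highest mean over the arrays, which gave values for 56 of the 57 members among 19938 genes. Ccnb1 was not analysed here.

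The wild type group had 3 arrays and so did the group with the genotype Nkx3.2Cre;R26-SmoM2, called SmoM2 here. SmoM2 is a form of the hedgehog transducer Smoothened that signals without ligand. It was expressed from the Rosa26 locus after recombination by a Cre driven by Nkx3.2, a gene of the stomach mesenchyme, so cells of other lineages are not its target. The labels do not say whether an array held 1 embryo or a pool, nor whether wild type embryos carried either allele alone. They name no litters or preparations, so each p-value rests on the spread among these 3 and 3 arrays, and that spread may be technical. The comparison asked whether cell cycle transcripts of the embryonic stomach differed when the pathway was switched on in the mesenchyme.

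A dividing cell passes from G1, in which D cyclins with Cdk4 and Cdk6 release E2F factors from the retinoblastoma protein, into S phase, in which MCM helicases and the nucleotide and clamp proteins copy the DNA. It then enters mitosis, run by Cdk1 with cyclins A and B, the Aurora and Polo kinases, and the kinesins and kinetochore proteins that move the chromosomes. Hedgehog signalling is known to induce Mycn, Ccnd1 and Ccnd2 in some progenitor cells, the granule neuron precursors of the cerebellum among them, and it is a known growth signal for gut mesenchyme. Transcripts of most replication and mitosis genes rise and fall with the cycle, so in a tissue their level follows the share of cycling cells as well as the output per cell. In bulk tissue, fewer cells of a type and less RNA per cell cannot be told apart.

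Promoter sequences are shown first because they set out what the members of a phase share apart from their arrays. Windows from 250 bases before to 50 bases after the annotated start came from RefSeq (build GRCm38.p6) and held 46 of the 56 members. No window was available for Myc, Ccnd1, Ccnd2, Ccne2, Mcm4, Aurkb, Ccna2, Foxm1, Kif20a and Tpx2, so their promoters were not searched. Shares count genes, and a gene held a motif if any of its windows did. TTTGAA gives the letters of the cell cycle homology region. Among mitosis members with a window, 22 of 28 (78.6%) held it on either strand, against 20.2% of all 27025 genes. Within 50 bases of the start it was found in 20 of 28 (71.4%), against 5.72% of all genes. The CCAAT box stood in 21 of the 28 mitosis windows (75%), in 9 of 14 replication windows (64.3%) and in 41.1% of all. TTTNNCGC, a form of the E2F site, stood in 7 of 14 replication windows (50%), in 3 of 28 mitosis windows (10.7%) and in 5.93% of all. The GLI letters GACCACCCA were in 0 of the 46 members with a window and in 0.289% of all genes. That count does not cover Ccnd1, Ccnd2 or Myc. The E-box CACGTG, to which Myc proteins bind, was in 2 of 4 G1 windows, 1 of 14 replication windows and 2 of 28 mitosis windows, and in 8.09% of all. These are matches of letters and not bound sites, and a window without them says only that the letters are not in it.

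The printed stretches run from 130 bases before to 20 bases after the annotated start, 5′ to 3′ on the strand of the gene, with the cell cycle homology letters, the CCAAT box (ATTGG where it lies on the opposite strand) and the E2F letters in capitals. They are the 3 mitosis members with a window and the smallest p, and the replication member with an E2F match in the 50 bases before the start. All lie on the minus strand, Mcm6 at chr1:128359686-128359835, Cenpf at chr1:189688067-189688216, Mki67 at chr7:135716360-135716509 and Hmmr at chr11:40733418-40733567.
Mcm6: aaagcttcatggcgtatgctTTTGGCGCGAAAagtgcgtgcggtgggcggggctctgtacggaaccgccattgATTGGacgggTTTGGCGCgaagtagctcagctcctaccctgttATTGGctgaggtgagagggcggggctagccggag
Cenpf: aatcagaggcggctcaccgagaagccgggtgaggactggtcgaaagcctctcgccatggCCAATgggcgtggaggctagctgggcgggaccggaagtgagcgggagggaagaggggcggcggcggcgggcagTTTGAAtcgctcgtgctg
Mki67: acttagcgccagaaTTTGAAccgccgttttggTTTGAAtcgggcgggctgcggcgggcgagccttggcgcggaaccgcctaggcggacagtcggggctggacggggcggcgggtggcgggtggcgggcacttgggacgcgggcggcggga
Hmmr: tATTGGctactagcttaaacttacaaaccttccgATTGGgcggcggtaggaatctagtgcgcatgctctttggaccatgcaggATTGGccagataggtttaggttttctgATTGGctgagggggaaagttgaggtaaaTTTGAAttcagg

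In Mcm6 the capitals at the first E2F stretch cover overlapping matches. Cenpf and Mki67, which stood lower in SmoM2, and Hmmr, which stood higher, all held the TTTGAA letters. The 22 mitosis members with them had 11 positive and 11 negative changes (median log2 change -0.0040), and the 6 members without them had 4 and 2 (median 0.06).

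The arrays were checked before the members were compared. The hedgehog target Hhip ran from 10.36 to 10.49 (log2 signal) in wild type and from 11.67 to 11.73 in SmoM2, and the stomach mesenchyme marker Barx1 was well above dim probe sets in both groups (12.57 ± 0.15 and 12.60 ± 0.07, SD, n = 3). Olfactory and vomeronasal receptor genes, taken as silent, had array medians of 6.16 to 6.40, while every member value was at or above 9.95. Wild type 1, wild type 2 and SmoM2 2 correlated more with each other than with the remaining 3 arrays (r over all probe sets 0.993 to 0.995 within these sets, 0.983 to 0.992 between them), and nothing in the labels names a batch. The mean of the Y-linked genes Eif2s3y, Kdm5d and Uty ran from 9.07 to 10.37 in wild type and from 8.71 to 9.27 in SmoM2. Xist was at 7.11 on wild type 1 and from 11.43 to 12.37 on the other arrays.

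No cell cycle member passed the threshold. In limma, 0 of 56 members had an adjusted p below 0.05, with Benjamini-Hochberg adjustment over all 19938 genes, against 0.983% of all genes (0.326% higher and 0.657% lower). At an unadjusted p below 0.05 there were 5 members, 3 higher and 2 lower, where 10.5% of all genes passed (3.29% higher and 7.24% lower). The SmoM2 and wild type values did not overlap in 8 of 56 members (14.3%), 7 with SmoM2 higher and 1 lower, and in 15.7% of all genes (5.64% higher and 10.1% lower). On both measures the members had more on the higher side and fewer on the lower side than their number and the background shares give, and this difference in side was not tested. The median log2 change (SmoM2 minus wild type) was 0.02 over the members and 0.0018 over all genes. Nearly all members were bright, and bright genes had another background. Among the 5760 genes above the 75th percentile of all probe sets, fitted alone, the median was -0.02. In that limma fit 17.9% of genes and 6 of 55 members had an unadjusted p below 0.05. In the main fit 33 members were positive (58.9%) and 23 negative, with 50.8% of all genes positive. The sign of 22 of the 56, all with a log2 change of at most 0.08 in size, turned in at least 1 alternative, so these counts of signs are loose.

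The intervals limit how large a change could have been missed. All 56 members had a 95% interval (limma, for each gene by itself and not adjusted for the number of genes) that lay inside a 1.5-fold change in either direction, as did 96.9% of all genes. For 51 of the 56 (91.1%) it lay inside 1.3-fold, as it did for 84.4% of all genes. The 5 outside 1.3-fold were Myc and Ccne2 on the higher side and Cenpf, Mki67 and Cenpe on the lower side. RMA (the authors' normalization) compresses differences, so these bounds hold for the deposited scale.

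**Figure D1:**
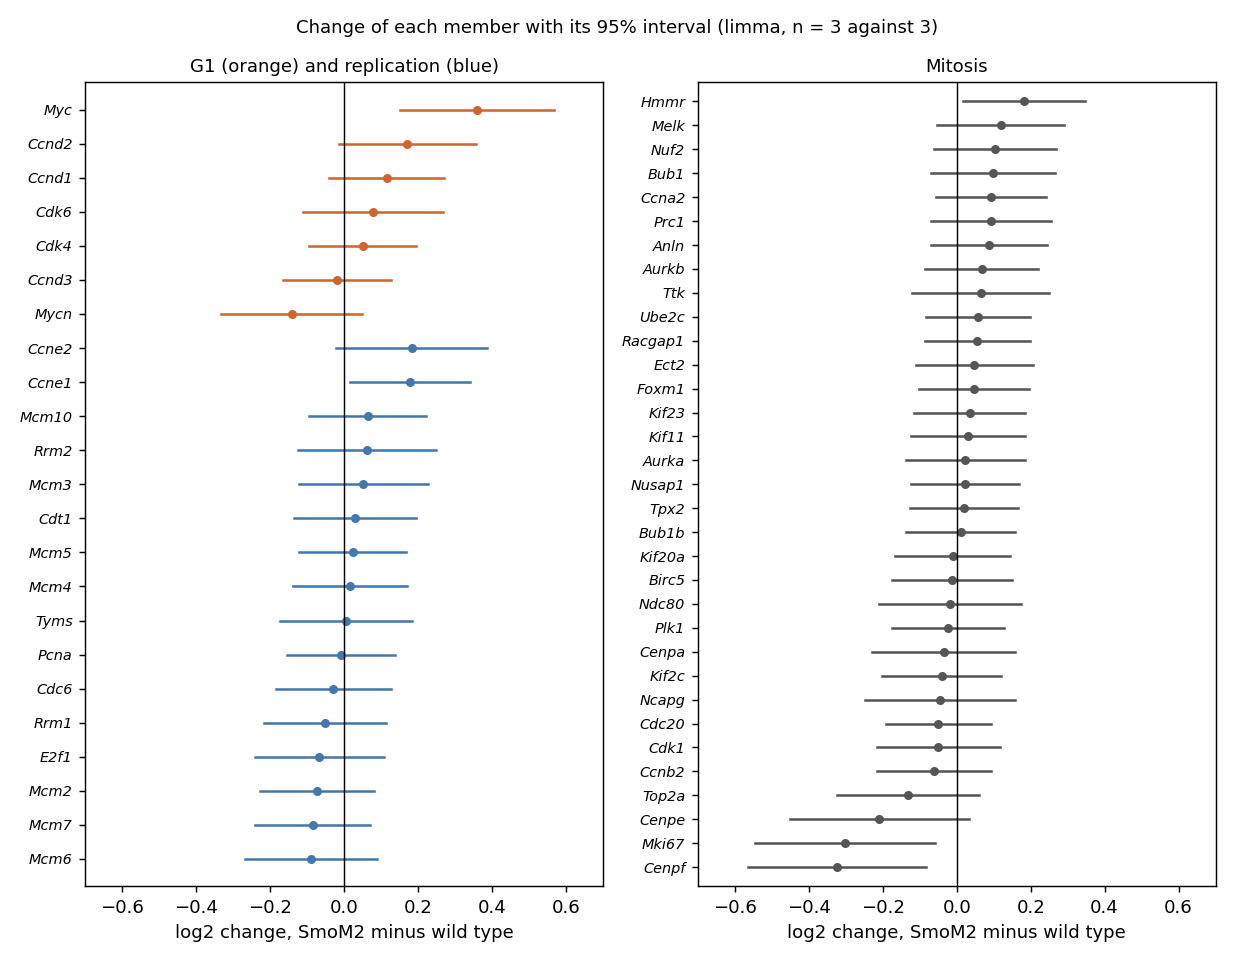
Log2 change (SmoM2 minus wild type, x axis) of each of the 56 members, with its 95% limma interval as a line and the estimate as a point. G1 members are orange, replication members blue and mitosis members grey. Myc has the highest estimate at 0.36 and Cenpf the lowest at -0.32, and the intervals of Myc, Ccne1, Hmmr, Cenpf and Mki67 are the 5 that do not cross 0.

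Among G1 genes, Myc showed the largest difference of any member and did not pass the threshold. Myc, a transcription factor that drives growth and entry into the cycle, was at 11.43, 11.43 and 11.46 in wild type and at 11.59, 11.92 and 11.89 in SmoM2. All 3 SmoM2 arrays were above all wild type arrays, and SmoM2 1 was closest to them. The log2 change was 0.36 (SE 0.09, 1.28-fold, limma adjusted p = 0.135). It was positive in all 20 fits of the main setting and its alternatives, from 0.30 to 0.47, with limma adjusted p from 0.00080 to 0.661. The lowest of these came with array weights, whose fit did not converge. Myc passed in 4 of the 20 fits, with array weights and with a term for the replicate number among them. Without SmoM2 1 it passed (log2 change 0.47, adjusted p = 0.0371), and among the 5760 genes above the 75th percentile of all probe sets it passed as well (adjusted p = 0.0475).

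Its relative Mycn pointed the other way. Mycn was at 10.94, 10.74 and 10.76 in wild type and at 10.57, 10.79 and 10.66 in SmoM2, with SmoM2 2 inside the wild type range. The log2 change was -0.14 (SE 0.08, limma adjusted p = 0.644), with an interval from -0.33 to 0.05. A rise of Mycn of more than 0.05 on the log2 scale was outside that interval, which belongs to the main fit alone. The change was positive in 0 of 20 fits. It was -0.08 without wild type 1 and -0.05 with a covariate for Y-linked signal. With array weights, whose fit did not converge, it was -0.21 and passed (limma adjusted p = 0.0302).

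The D cyclins, which carry mitogen signals to the cycle, differed little. Ccnd2 was at 13.22, 12.97 and 13.11 in wild type and at 13.29, 13.33 and 13.19 in SmoM2, so that SmoM2 3 fell below wild type 1. Its log2 change was 0.17 (interval -0.01 to 0.36). Ccnd1 was at 12.53, 12.38 and 12.47 and at 12.54, 12.57 and 12.61. Here the groups did not overlap, though SmoM2 1 exceeded wild type 1 by less than the SD of either group, and the log2 change was 0.11 (interval -0.04 to 0.27). Ccnd3 was at 12.02, 12.06 and 12.05 and at 12.00, 12.08 and 12.00, a log2 change of -0.02 (interval -0.16 to 0.13). The adjusted p of these 3 genes in limma was 0.527, 0.650 and 0.960.

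The kinases that pair with the D cyclins overlapped between the groups. Cdk4 was at 13.91, 13.96 and 13.87 in wild type and at 13.97, 13.96 and 13.97 in SmoM2 (log2 change 0.05, limma adjusted p = 0.862). Cdk6 was at 11.23, 11.31 and 11.24 and at 11.23, 11.50 and 11.28 (log2 change 0.08, limma adjusted p = 0.832), where SmoM2 2 alone stood above all other arrays. Over the 7 G1 members the median log2 change was 0.08, with 5 positive and 2 negative.

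**Figure D2:**
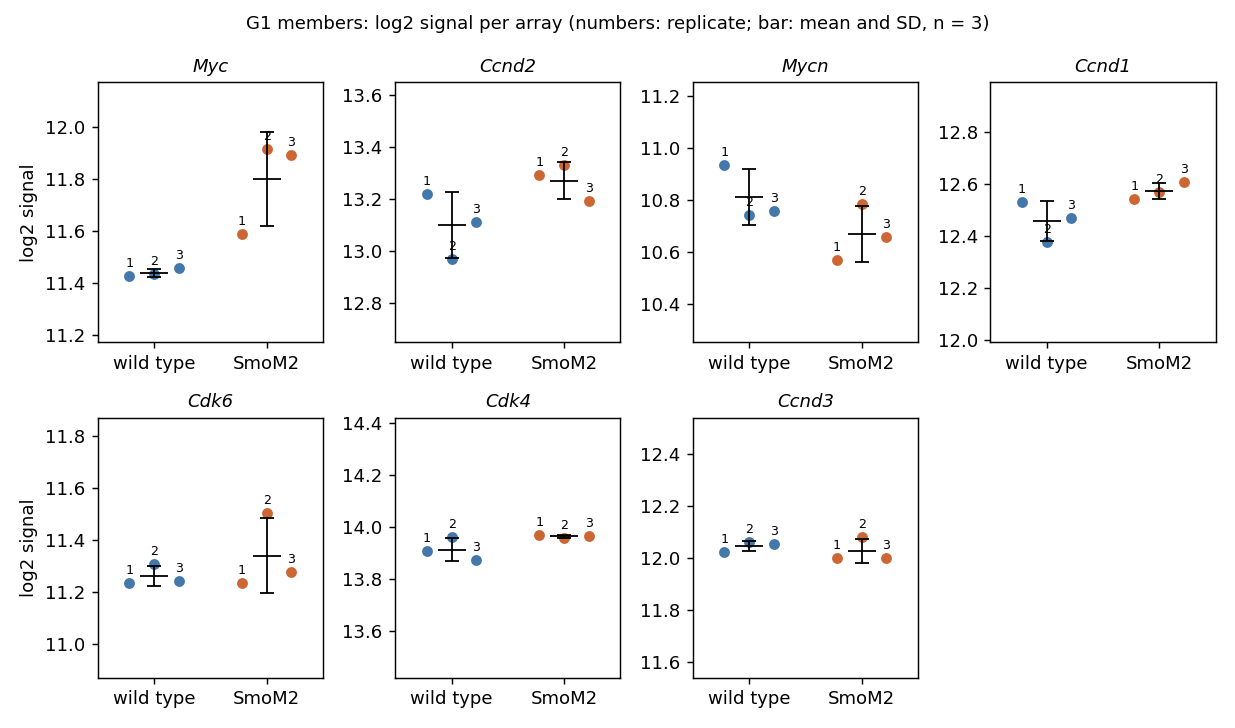
Log2 signal (y axis, each panel spanning 1 unit) of the 7 G1 members in wild type (blue) and SmoM2 (orange). Points are arrays marked with their replicate number, and bars are mean and SD of 3 arrays. Only in Myc and Ccnd1 do all SmoM2 points lie above all wild type points.

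Replication genes were close to level in the groups. Of 16 members 0 passed, 9 had a positive and 7 a negative change, and the changes ran from -0.09 to 0.18 with a median of 0.01 on the log2 scale. The highest belonged to the E cyclins, which with Cdk2 start S phase. Ccne1 was at 11.77, 11.68 and 11.85 in wild type and at 11.92, 12.00 and 11.91 in SmoM2, without overlap (log2 change 0.18, SE 0.07, limma adjusted p = 0.414). Ccne2 was at 10.66, 10.90 and 10.77 and at 10.81, 11.06 and 11.00, with SmoM2 1 below wild type 2 (log2 change 0.18, SE 0.09, limma adjusted p = 0.548).

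The MCM helicase genes stayed close to 0. Mcm7 was at 12.67, 12.69 and 12.64 in wild type and at 12.57, 12.67 and 12.51 in SmoM2 (log2 change -0.08). Mcm6 was at 12.04, 11.96 and 12.09 and at 11.91, 12.07 and 11.84 (log2 change -0.09). Mcm2 was at 11.94, 11.84 and 11.97 and at 11.81, 11.88 and 11.84 (log2 change -0.07). In each of these the groups overlapped, and limma adjusted p ran from 0.767 to 0.806. Mcm10, which acts in switching on the loaded helicase, was at 10.74, 10.70 and 10.67 and at 10.74, 10.86 and 10.70 (log2 change 0.06). Mcm3, Mcm4 and Mcm5, subunits of the same helicase, had log2 changes of 0.05, 0.02 and 0.02, and like Mcm10 they were negative with array weights.

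The nucleotide supply and the clamp were level as well. Rrm1 and Rrm2, the subunits of ribonucleotide reductase, had log2 changes of -0.05 and 0.06. Rrm1 was at 13.00, 13.06 and 13.04 in wild type and at 12.98, 13.09 and 12.89 in SmoM2, and Rrm2 at 12.93, 12.79 and 12.83 and at 12.90, 13.04 and 12.79. Pcna, the sliding clamp of the polymerases, was at 13.52, 13.45 and 13.44 and at 13.45, 13.46 and 13.47, and its 95% interval ran from -0.15 to 0.14. E2f1, which switches on replication genes, was at 10.41, 10.31 and 10.41 and at 10.18, 10.39 and 10.35 (log2 change -0.07). Tyms, which makes thymidylate, and the origin licensing genes Cdc6 and Cdt1 had changes of 0.0059, -0.03 and 0.03.

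In mitosis the members split, with a few lower and most near 0. Of 33 measured members 0 passed, 19 had a positive and 14 a negative change, and the median was 0.02 on the log2 scale. The lowest were Cenpf, Mki67, Cenpe and Top2a, and the highest was Hmmr.

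Cenpf, a large kinetochore protein, was at 10.67, 10.73 and 10.43 in wild type and at 10.13, 10.47 and 10.26 in SmoM2. Mki67, the proliferation antigen Ki-67 that coats mitotic chromosomes, was at 12.37, 12.59 and 12.22 and at 12.01, 12.26 and 12.00. In both genes SmoM2 2 was above wild type 3 and the groups overlapped by that pair alone. Cenpf had a log2 change of -0.32 (SE 0.11, 1.25-fold lower, limma adjusted p = 0.282) and Mki67 of -0.30 (SE 0.11, 1.23-fold lower, limma adjusted p = 0.333).

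The differences were also taken within the sets of like arrays. Wild type 1 and 2 were the highest wild type arrays, and SmoM2 2 was the highest SmoM2 array. Within the set of wild type 1, wild type 2 and SmoM2 2, the difference (SmoM2 minus wild type) was -0.24 for Cenpf and -0.22 for Mki67. Within the set of wild type 3, SmoM2 1 and SmoM2 3 it was -0.23 and -0.21. With a term for the sets, chosen after the data were seen, 0 of the 56 members passed, against 1.63% of all genes.

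Cenpe, the kinesin of the kinetochore, also had SmoM2 2 above wild type 3. It was at 11.05, 11.03 and 10.77 in wild type and at 10.58, 10.93 and 10.70 in SmoM2 (log2 change -0.21, limma adjusted p = 0.566), with -0.11 and -0.13 within the sets. Top2a, the topoisomerase that untangles sister chromatids, was at 12.76, 12.72 and 12.53 and at 12.53, 12.64 and 12.45 (log2 change -0.13, limma adjusted p = 0.686). Within the sets its differences were -0.10 and -0.04. For each of these 4 genes the differences within the sets were smaller than over all arrays.

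Hmmr, a spindle protein, stood on the other side. It was at 10.43, 10.49 and 10.32 in wild type and at 10.56, 10.57 and 10.66 in SmoM2, without overlap (log2 change 0.18, SE 0.07, limma adjusted p = 0.409). Melk, a mitotic kinase, was at 11.14, 10.96 and 11.07 and at 11.14, 11.27 and 11.13 (log2 change 0.12). Nuf2, a subunit of the Ndc80 complex that ties kinetochores to microtubules, was at 10.92, 10.87 and 10.82 and at 10.87, 11.03 and 11.03 (log2 change 0.10).

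The cyclins that run mitosis gave small changes of both signs. Ccna2 was at 13.10, 13.08 and 13.03 in wild type and at 13.13, 13.13 and 13.22 in SmoM2, without overlap (log2 change 0.09, limma adjusted p = 0.718). Ccnb2 was at 12.78, 12.64 and 12.77 and at 12.64, 12.69 and 12.67 (log2 change -0.06, limma adjusted p = 0.839). Their kinase Cdk1 and the Polo kinase Plk1 had log2 changes of -0.05 and -0.02. The other members without overlap were Ube2c and Racgap1, at 0.06 each, and Cdc20, which activates the ligase that ends mitosis, at -0.05 and the only member with every SmoM2 array below every wild type array. The kinases Aurka and Aurkb had 0.02 and 0.07, the checkpoint kinases Bub1, Bub1b and Ttk 0.10, 0.01 and 0.06, and Foxm1, the transcription factor of the mitotic genes, 0.05. The kinesins Kif11, Kif20a, Kif23 and Kif2c lay between -0.04 and 0.03. The remaining mitosis members, Cenpa, Ncapg, Birc5, Tpx2, Nusap1, Ect2, Prc1 and Anln, lay between -0.05 and 0.09, all with overlap.

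**Figure D3:**
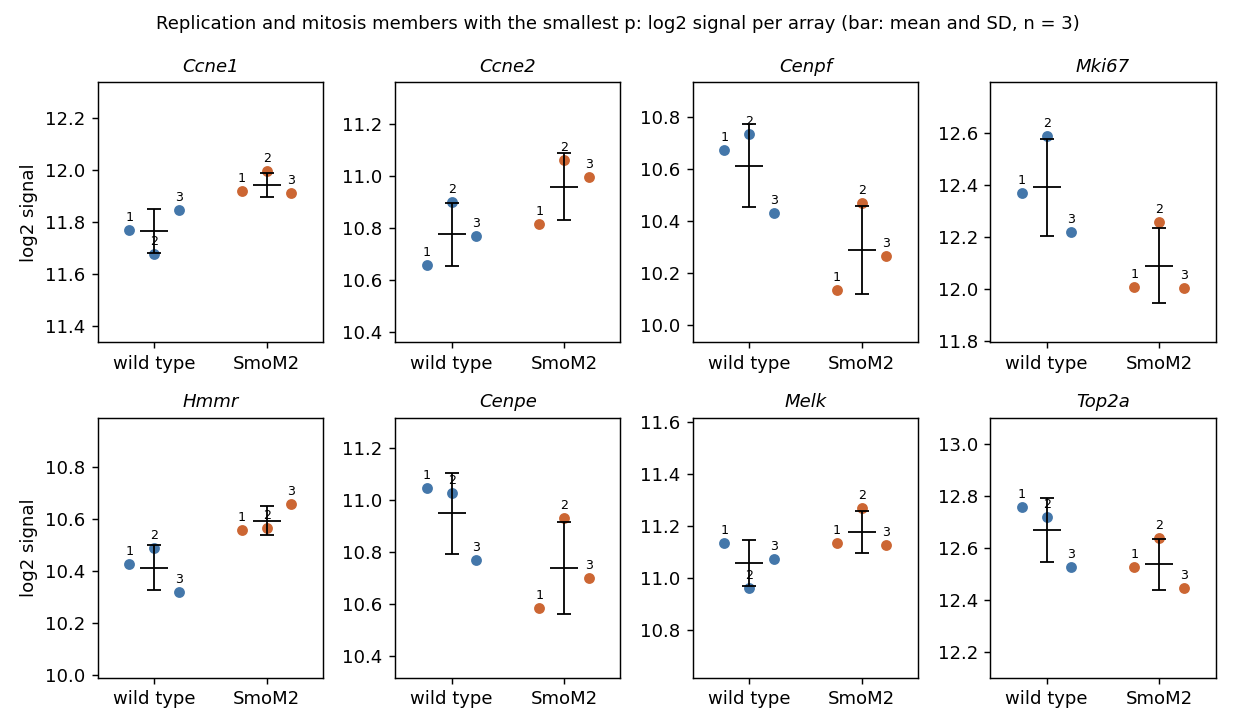
Log2 signal (y axis, each panel spanning 1 unit) in wild type (blue) and SmoM2 (orange) of the 2 replication and 6 mitosis members with the smallest unadjusted p. Points are arrays marked with their replicate number, and bars are mean and SD of 3 arrays. In Cenpf, Mki67 and Cenpe wild type 3 and SmoM2 2 lie between the other arrays, while in Ccne1 and Hmmr the groups do not overlap.

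Much of the variation of the members was between arrays of 1 genotype. SmoM2 2 was the highest of the 3 SmoM2 arrays for 47 of 56 members (5 of 7 in G1, 15 of 16 in replication and 27 of 33 in mitosis), and the highest of all 6 arrays for 31. SmoM2 1 was the lowest SmoM2 array for 34. In wild type, replicate 1 was highest for 32 members and replicate 3 lowest for 30. Taken as the deviation of each gene from its mean over the arrays, the median over mitosis members was 0.06 on SmoM2 2, -0.03 on SmoM2 1 and -0.0089 on SmoM2 3, and 0.03, -0.02 and -0.04 on wild type 1, 2 and 3. Over all genes SmoM2 2 had a median deviation of -0.0094, but that comparison is not matched for signal. Of the 56 members 55 were above the 75th percentile of all probe sets. Taken on each array, that percentile was also highest on SmoM2 2 (10.16, with wild type 1 and wild type 2 at 10.16 as well). It was lowest on SmoM2 1 (10.02). Whether bright genes in general shared the pattern of the members was not tested. Without SmoM2 2 the median log2 change of replication members was -0.02 and that of mitosis members -0.0017, against 0.01 and 0.02 with it.

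**Figure D4:**
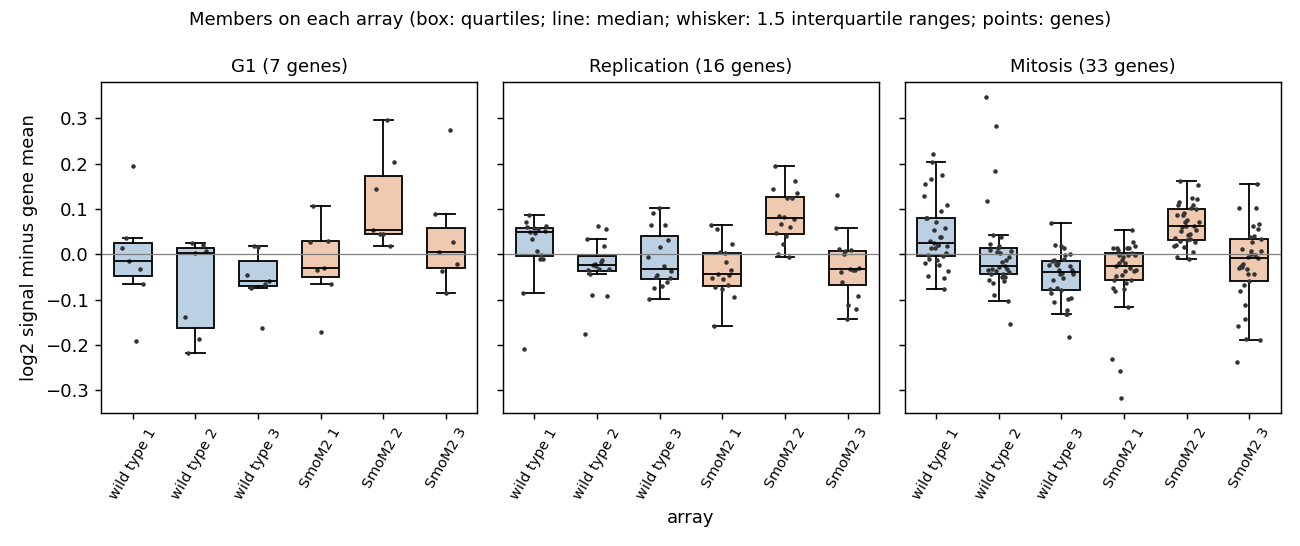
Deviation of each member from its mean over 6 arrays (log2 signal, y axis) on each array (x axis), for G1, replication and mitosis members. Boxes span the quartiles with the median as a line, whiskers reach 1.5 interquartile ranges and points are genes, with wild type in blue and SmoM2 in orange. The box of SmoM2 2 is the highest in each panel, and the boxes of SmoM2 1 and SmoM2 3 overlap those of wild type.

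Other genes of the cell cycle, from lists outside the 57, gave the same count. Of 129 measured genes 0 passed, against 0.983% of all genes. A positive change was found in 75 and a negative one in 54, and the median log2 change was 0.02. At an unadjusted limma p below 0.05 there were 4 of the 129, where 10.5% of all genes passed. The smallest adjusted p belonged to Spc25, a partner of Ndc80 and Nuf2 in the kinetochore complex. Spc25 was at 10.71, 10.67 and 10.75 in wild type and at 11.02, 11.01 and 11.03 in SmoM2 (log2 change 0.31, SE 0.06, 1.24-fold, limma adjusted p = 0.0660). All SmoM2 arrays were above all wild type arrays. It passed among genes above the median of all probe sets (adjusted p = 0.0279) and with an intensity trend in limma (adjusted p = 0.0242). Ndc80 itself had a log2 change of -0.02, with a positive sign in 4 of 20 fits. Aspm, a spindle pole protein, was at 10.89, 10.75 and 10.58 and at 10.21, 10.63 and 10.40 (log2 change -0.33, limma adjusted p = 0.324), again with SmoM2 2 above wild type 3.

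Of 12 measured inhibitors of the cycle 0 passed, and Cdkn1a was not analysed here. A negative change was found in 9 of them (median log2 change -0.04) and in 9817 of all 19938 genes. Gas1, an arrest gene that also serves as a hedgehog coreceptor, was at 10.98, 10.80 and 10.81 in wild type and at 10.53, 10.64 and 10.85 in SmoM2 (log2 change -0.19, limma adjusted p = 0.551). Btg1, an antiproliferative factor, was at 12.30, 12.27 and 12.30 and at 12.37, 12.44 and 12.42 (log2 change 0.12, limma adjusted p = 0.591). Of 18 further G1 and S phase regulators 0 passed and 13 had a positive change, with Mybl2 and E2f6 both at 0.11. Of 36 further replication genes 0 passed and 24 had a positive change, with the polymerase subunit Pole2 and the flap nuclease Fen1 both at 0.14.

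Markers of several cell types passed the threshold, which 0 of the 56 cycle members and 0.983% of all genes passed. The marker lists, like the members, were chosen with earlier results of these data known. Of 15 epithelial markers 6 fell in limma (Cdh1, which encodes E-cadherin, by 0.58 on the log2 scale, adjusted p = 0.0111), and the log2 of their summed signal ran from 14.51 to 14.63 in wild type and from 13.99 to 14.15 in SmoM2. Of 12 smooth muscle markers 5 rose and 1 fell, with a summed signal of 13.91 to 13.99 and of 14.32 to 14.54. Of 11 markers of enteric neurons and glia 4 fell (summed signal 13.56 to 13.77 and 13.31 to 13.53), as did 2 of 6 of mesothelium (12.84 to 12.89 and 12.36 to 12.54). The 4 were Nefm, Dbh, Dcx and Nefl. In that list of 11, 8 had a negative and 3 a positive log2 change (Ednrb 0.32, Sox10 0.11 and Ret 0.05). Erythroid (8), endothelial (8) and leukocyte (9) markers had 0 past the threshold and summed signals of 15.42 to 15.57, 13.98 to 14.01 and 12.35 to 12.40 in wild type, and of 15.24 to 15.38, 13.76 to 13.90 and 11.99 to 12.22 in SmoM2. Of 14 genes listed for stomach mesenchyme 5 rose, the hedgehog targets Hhip, Ptch1, Foxf1, Foxf2 and Foxl1 (summed signal of the list 15.81 to 15.87 and 15.98 to 16.07). Others of that list did not pass, among them Barx1 at 0.03, Pdgfra at 0.02, Nkx3-2 at -0.12 and Col1a1 at -0.33 (log2 change). Of 9 liver markers 0 passed (13.22 to 13.95 and 13.03 to 13.94). The lowest value in any of these lists was 7.76, above the receptor genes' medians. Their part in the levels of the cycle members was not tested.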

How the data were processed

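The deposited table holds log2 signals for 35556 probe sets in 6 arrays, 1 column per array. Per the submitters' processing notes, the authors used RMA and affy (no versions given). Total RNA was extracted with Trizol and labelled as biotinylated cRNA, per the labels' protocols. RMA includes quantile normalization, which hides a change in total RNA. Precision is limited by the number of arrays.

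Platform annotation gave 21789 probe sets 1 symbol, and symbols were updated through RefSeq gene identifiers (0 changed). The probe set with the highest mean stood for a gene. Pcna and Top2a had 2 probe sets each, with the same sign in both. The second Top2a probe set had a mean of 5.45, below the array medians of the receptor genes, so its sign carries no weight. The 2 Pcna changes were -0.0057 and -0.0084, too small for their sign to count. The comparison, SmoM2 minus wild type, used lmFit and eBayes of limma 3.58.1 (R 4.3.3), with Benjamini-Hochberg adjustment over 19938 genes and a threshold of 0.05. For a single gene, exact permutation of 6 arrays has a smallest two-sided p of 0.1. The code was tested on simulated data.

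The members and lists were chosen with earlier results of these data known. Values in every array were given for G1 members, and in replication and mitosis for the 8 with the smallest p and the 2 with the highest mean. In the other cell cycle lists the 2 with the smallest p were named. Other members were named by role. There were 18 alternatives fixed with the design and 1 added after the data were seen.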

Additional observations from a re-analysis of the deposited data

How the results depend on the processing

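Over 19 alternatives, 0 of the 56 members passed in 15. In these 15 few genes of any kind passed, from 0% (without variance moderation) to 2.45% of all genes (those above the median of all probe sets). Leaving out 1 array gave 0 to 1 G1 members past the threshold, with 0.16% to 1.24% of all genes. The G1 median ran from 0.0543 (without SmoM2 2) to 0.13 (without SmoM2 1). The replicate block, with the number in the titles as a term, passed 1 G1 member (Myc, adjusted p = 0.0206), 2 mitosis members (Cenpf, adjusted p = 0.0460, and Mki67, adjusted p = 0.0482) and 1 other cell cycle gene (Spc25), with 3.5% of all genes. Deviations of same-numbered arrays correlated at -0.10, 0.52 and 0.06 for replicates 1, 2 and 3. Whether same-numbered arrays were prepared together is not in the labels and was not tested. Array weights passed 2 G1, 3 replication and 6 mitosis members (19.6% of members) and 16 other cell cycle genes, with 20.6% of all genes. These weights ran from 0.327 to 6.02, and their fit did not converge. Genes above the 75th percentile gave 1 G1 member (1.82% of members) and 1 other cell cycle gene, with 3.78% of all genes in that fit. Genes above the median of all probe sets and an intensity trend gave 1 other gene each, with 2.45% and 1.69% of all genes. Without variance moderation limma's fit passed 0 genes, with 1873 of all genes at an unadjusted p below 0.05.

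Signs turned in at least 1 alternative for 22 of the 56 members (1 in G1, 9 in replication, 12 in mitosis), and no turned value was past the threshold. Of the turned members Ncapg alone passed in another fit, the one with array weights. Of the members given in every array 4 turned. Without SmoM2 2 the log2 change of Cdk6 was -0.0045. Leaving out 1 array gave -0.0030 to 0.123 for Rrm2 and -0.0233 to 0.0176 for Pcna. With array weights Mcm10 was at -0.0067 and Rrm2 at -0.0770. Pcna was at 0.0098 with centring on the median and at 0.0358 with a covariate for Y-linked signal. The cause was not tested. The medians of replication and mitosis members moved by less than the spread of the arrays in each alternative.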
